A study of Solenopsis invicta with 52 samples.

Results

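Brain and gaster of the same ant were compared in 20 small workers of Solenopsis invicta, the red imported fire ant. They are the workers for which the series holds libraries of both tissues with the same group, replicate number and individual id, so that 40 of the 52 libraries and 20 of the 32 workers entered. Each library was made from 1 tissue of 1 ant, and the measurement was the count of RNA-seq reads per gene. The study transferred dark pupae between laboratory colonies to separate the genotype at a supergene, whose haplotypes are called SB and Sb, from the colony in which a worker grew up and from the colony in which it lived as an adult. Colonies of this species are monogyne, with a single queen, or polygyne, with several.

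The 4 groups held 5 workers each. Workers called mBB were SB/SB, came from monogyne colonies and were moved into monogyne hosts. Workers called mpBB were SB/SB, came from monogyne colonies and were moved into polygyne hosts. Workers called pBB were SB/SB, and workers called pBL were SB/Sb, and both came from polygyne colonies and were moved into polygyne hosts. Every host held 250 workers, monogyne hosts with 1 SB/SB queen and polygyne hosts with 2 egg-laying SB/Sb queens. All ants weighed 0.6 to 0.9 mg and were taken 16 days after the transfer, at an age of 14 to 16 days. No stock colony gave or hosted ants more than once in a treatment, so the 5 workers of a group had separate source and host colonies. This rule does not cover colonies shared between groups. The p-values measure the spread between workers, which the main fits took as independent. All 4 groups lived in queenright host colonies, and no group stayed in its colony of birth.

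The insect brain is made of neurons and the glia around them, and its RNA is dominated by genes of electrical signalling, synapses and basic cell upkeep. The gaster is the rear of the abdomen. It holds the fat body, which stores nutrients and secretes blood proteins, the midgut and hindgut with their digestive enzymes, the excretory Malpighian tubules, the venom gland, muscle and cuticle, while workers of this species have no ovaries. The identifiers in the files were matched to 0 gene names in the reference table used here, so that no gene below is given a function, no sequence is shown, and the tissue labels were not checked against marker genes. In whole tissues a lower level can come from fewer cells of a type or from less RNA per cell, and these cannot be told apart.

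Brain libraries were made with a low-input SMARTer kit that does not record the strand, and gaster libraries with a stranded KAPA kit. A difference between tissues therefore holds the difference between kits as well, the 2 cannot be told apart for a single gene, and only differences over 8-fold were called. Counts in genes ranged from 14527840 to 70040807 per brain library and from 30238770 to 77973614 per gaster library. The share of reads outside annotated genes was 34.9% to 43.0% for brains, against 9.11% to 14.5% for gasters. The gaster library of pBB replicate 1 stood apart, with 53.4% of its reads unmapped, and results that rest on pBB are given without it where that changes them.

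The tissues differed in much of the transcriptome. Of 12200 genes tested, 3120 (25.6%) differed by significantly more than 8-fold between brain and gaster of the same worker, by edgeR's quasi-likelihood test against that fold at an adjusted p of 0.05. The numbers in the 2 directions were close, with 1568 genes (12.9%) higher in gaster and 1552 genes (12.7%) higher in brain. A difference of any size passed for 11257 genes (92.3%), which is why size and not significance alone was used to call. At the other end, 4409 genes (36.1%) lay within 2-fold between the tissues.

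The balance between directions depended on how the libraries were scaled. Levels are given as counts per 1000000 (CPM) of a library size scaled by TMM, a method that sets the bulk of genes equal between libraries, and its factors were 1.20 to 1.38 in brain and 0.726 to 0.831 in gaster. Relative to total gene counts alone, the median log2 difference of all genes moved by -0.69, and 1281 genes were then over 8-fold higher in gaster and 2027 in brain, so that the share of calls higher in gaster was 38.7% in place of 50.3%. Differences below are relative to the TMM scale.

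The largest differences were on the gaster side. The median log2 difference, gaster minus brain, was 5.68 among the genes called higher in gaster and -5.08 among those called higher in brain. Differences beyond 10 on the log2 scale were reached by 133 genes in gaster and by 11 in brain, and differences beyond 8 by 351 and 131. The number of abundant genes was also uneven. A mean of at least 1000 CPM was reached by 190 genes in gaster and by 57 in brain. A similar share of each was over 8-fold higher in its own tissue, 116 of the 190 and 32 of the 57. Over all genes tested these shares were 12.9% and 12.7%, and a choice by high level in a tissue favours genes higher there. The numbers 190 and 57 depend on the TMM factors, which raised CPM in gaster and lowered it in brain.

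Near-complete separation was more common on the brain side. A level of at least 1 CPM in every brain with less than 0.1 CPM in every gaster was found for 58 genes, and the reverse for 16 genes. These genes were modest in level, with a median of 4.09 CPM in brain for the 58 and 9.47 CPM in gaster for the 16. Among the genes tested, 30 had no count in any of the 20 gasters and 4 had none in any of the 20 brains. A few stray counts in a single library are enough to take a gene out of these sets. Kit, depth and the share of reads outside genes differed between the tissues, and their part here was not tested.

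**Figure D1:**
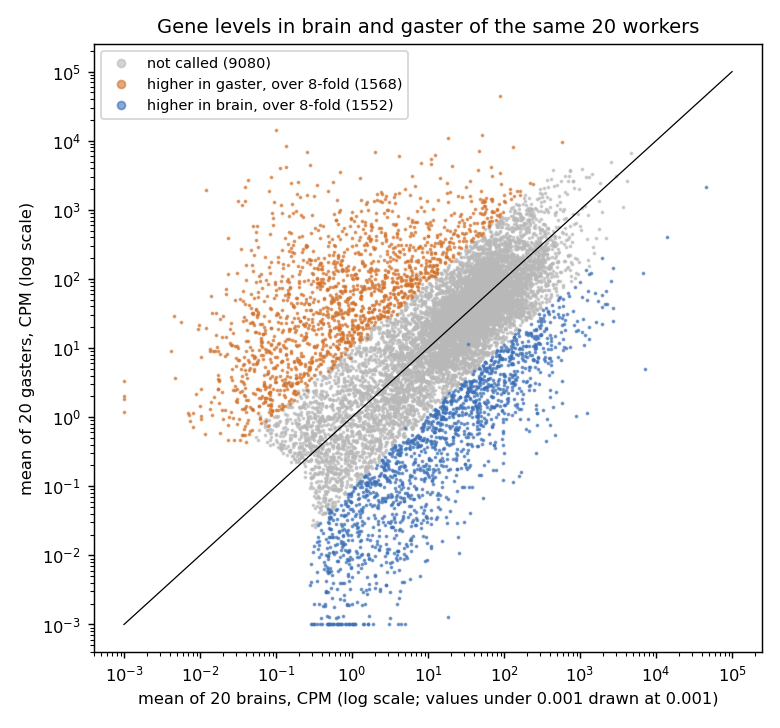
Mean level of each of 12200 genes in 20 brains (x axis) and 20 gasters (y axis), in CPM on log scales, with the line of equal levels. Orange points are the 1568 genes called over 8-fold higher in gaster, blue points the 1552 called over 8-fold higher in brain and grey points the rest, and the orange cloud reaches farther from the line than the blue one.

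The separation held worker by worker. All 20 workers showed the direction of the call for 1546 of the 1568 genes higher in gaster and for 1524 of the 1552 genes higher in brain. In 1020 and 873 of them every single worker differed by over 8-fold. The genes were called on these same 20 workers, which favours such agreement. The lowest level in one tissue lay above the highest in the other for 1498 of the genes called higher in gaster and 1477 of those called higher in brain, against 7361 (60.3%) of all genes tested.

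Libraries of one tissue were much more alike than the tissues of one ant. Across genes, the log2 levels of 2 brains correlated with Pearson's r of 0.960 to 0.987 and those of 2 gasters with 0.958 to 0.988. Brain and gaster of the same worker correlated with r of 0.513 to 0.557. Libraries of a tissue also share a kit, and genes are not independent replicates, so these values describe the 40 libraries only.

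The genes that carried most of the RNA were mostly different in the 2 tissues. Of the 100 genes with the highest mean CPM in brain and the 100 in gaster, 18 were shared, and 5 of these lay within 2-fold. In the gaster list, 66 genes were over 8-fold higher in gaster and 1 was over 8-fold higher in brain. In the brain list, 42 genes were over 8-fold higher in brain and 0 over 8-fold higher in gaster. Over all genes tested the shares were 12.9% higher in gaster and 12.7% higher in brain. A list ranked by the level in a tissue favours genes higher in that tissue, so these counts are a description only.

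Genes called higher in gaster took 42.1% to 47.1% of all gene counts of the gasters (median 45.2%) and 1.04% to 1.63% of those of the brains (median 1.31%). Genes called higher in brain took 24.7% to 30.3% of the counts of the brains (median 28.3%) and 0.554% to 0.769% of those of the gasters (median 0.669%). These shares follow from the calls and are given as a description. The share that the gaster set took of gaster counts was larger in every worker than the share that the brain set took of brain counts.

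Brain counts were led by a single gene, while gaster counts were spread over a larger group of abundant genes. The most abundant gene took 4.14% to 8.16% of counts in brains (mean 5.83%) and 1.80% to 6.12% in gasters (mean 3.46%). It was the larger share in brain in all but 3 of the 20 workers (two-sided paired permutation test over workers, p = 3e-05). The 3 were mpBB replicate 15, pBB replicate 1 and pBL replicate 1, all with an individual id under 140. The 10 most abundant genes of each library took a mean of 12.1% in brains and 12.3% in gasters, a difference of 0.228 percentage points with an SD of 1.86 over the 20 workers (p = 0.6 by the same permutation test). The 100 most abundant genes took a mean of 25.7% in brains and 32.2% in gasters, and were the larger share in the gaster of 20 of 20 workers, by 6.46 percentage points (SD 1.77, n = 20 workers, permutation p = 1e-05, the smallest that 100000 resamples can give). The tissues thus differed in opposite directions at 1 gene and at 100 genes, and no difference was detectable at 10.

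**Figure D2:**
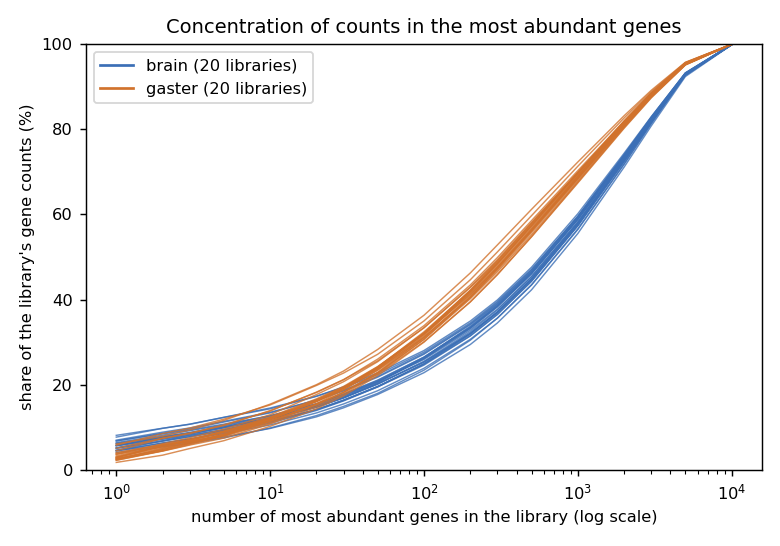
Share of a library's gene counts (y axis, %) held by its most abundant genes, against their number (x axis, log scale), with 1 line for each of 20 brain and 20 gaster libraries. Most brain lines start above the gaster lines, at 4.14% to 8.16% against 1.80% to 6.12% for 1 gene, and all gaster lines lie above all brain lines at 100 genes, at 30.03% to 36.3%.

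More genes were detected in brains than in gasters at equal depth. After every library was thinned to the gene total of the smallest, 14527840 counts, 10500 to 11201 genes had at least 10 counts in brains (median 10721) and 10083 to 10322 in gasters. The gaster had fewer in 20 of 20 workers, with a mean difference, gaster minus brain, of -522 genes (SD 176, n = 20, two-sided paired permutation test, p = 1e-05, the smallest possible). The difference was -1088 genes at a minimum of 1 count and -516 genes at 100 counts, in the same direction in every worker. At 1 count the brains moved with the individual id. Thinned brains held 12895 to 13209 genes in ids under 140 and 13157 to 14790 in higher ids. Among the higher ids, only the brain of pBB replicate 5 lay within the range of the lower ids. Gasters overlapped more, at 12259 to 12472 and 12345 to 12559 genes. The mean of -1088 thus mixes ids that differ in size. Without thinning, most gaster libraries are deeper. The difference between the tissues was then -782 genes at 1 count and not detectable at 10 counts (permutation p = 0.6). It was reversed at 100 counts, with 363 more genes in gaster (SD 525, permutation p = 0.007, more in 15 of 20 workers). The low-input kit and the larger share of reads outside genes in brain moved with the difference between the tissues. Their part in it, and that of the id, was not tested.

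The 2 genes with the highest levels on each side show the 2 directions. SINVBB1_01611 was the most abundant gene of 16 of the 20 gasters, at 19086 CPM in the lowest, 40250 CPM at the median and 84320 CPM in the highest gaster. Its brain levels were 3.20 CPM in the lowest, 40.3 CPM at the median and 599 CPM in the highest brain. Brain and gaster ranges did not come near each other, but the brain level varied widely between ants. Gasters of ants with an individual id under 140 held 36938 to 84320 CPM, and those with a higher id 19086 to 49808 CPM. The highest brain value was that of pBB replicate 1, and the next was 280 CPM in pBL replicate 5. The log2 difference was 10.02 ± 0.55 (SE, n = 20 workers, edgeR adjusted p = 1.04e-12 against 8-fold).

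SINVBB1_00886 was the most abundant gene of the other 4 gasters and the most strongly separated of the abundant genes. Its gaster levels ran from 19076 CPM through a median of 28115 CPM to 38690 CPM. In brains it ran from 0.354 CPM through 0.650 CPM to 1.21 CPM, which is 558 counts over all 20 brain libraries. Both tissues were uniform, and the log2 difference was 15.34 ± 0.19 (SE, n = 20, edgeR adjusted p = 3.50e-25 against 8-fold). Trace brain counts of this gene were even over workers, unlike those of SINVBB1_01611, whose within-worker difference had an SD of 1.84 against 0.52.

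SINVBB1_02265 was the most abundant gene in all 20 brains. It stood at 31901 CPM in the lowest, 45736 CPM at the median and 65285 CPM in the highest brain, and at 1265 CPM, 2142 CPM and 2895 CPM in gasters. Every brain lay far above every gaster. The log2 difference was -4.42 ± 0.08 (SE, n = 20, edgeR adjusted p = 1.59e-15 against 8-fold). In gasters, where strand is known, only 14.9% of its strand counts lay on the strand that carries most gaster counts, and with that strand alone the difference was -7.14, so that most gaster reads at SINVBB1_02265 came from the opposite strand. The gaster values above hold reads of both strands, and brain reads cannot be split in this way.

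SINVBB1_02539, the second gene named on the brain side, had 9151 CPM in the lowest, 13601 CPM at the median and 18187 CPM in the highest brain. Gasters held 349 CPM, 389 CPM and 477 CPM. Levels in both tissues were narrow, and the log2 difference was -5.07 ± 0.08 (SE, n = 20, edgeR adjusted p = 1.28e-19 against 8-fold). Here 99.0% of gaster strand counts lay on the expected strand.

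Gaster reads on the unexpected strand were more frequent at genes called higher in brain than at those called higher in gaster. Under 50% of gaster strand counts lay on the reverse strand, the strand of nearly all gaster reads, for 51 of the 1568 genes called higher in gaster (3.25%), for 281 of the 1526 genes called higher in brain that had gaster strand counts (18.4%), and for 944 of all 12174 genes with such counts (7.75%). When gaster levels were taken from the reverse strand alone, 1551 genes were called higher in gaster and 1856 higher in brain, and 3043 of the 3120 calls were shared. Of 321 genes newly called higher in brain, 278 were among those with under 50% on the reverse strand. That follows from the way the counts were taken, since such genes lose most of their gaster counts while brain keeps both strands. Reads from a gene and from a gene opposite to it cannot be told apart in the brain libraries.

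Levels varied more between ants in gaster than in brain. Over 6014 genes with a mean of at least 10 CPM in both tissues, the median SD of log2 levels within groups was 0.168 over brains and 0.222 over gasters, and the spread was larger in gaster for 4224 genes (70.2%). The within-worker difference had a median SD of 0.284, close to the 0.291 that follows if brain and gaster of an ant varied independently. For 50.9% of these genes the observed SD was below that value. Kit, depth and tissue all differ between the libraries. Each group also mixed 2 ants with an individual id under 140 and 3 with a higher id. Gaster minus brain moved with that split in 4435 genes, as given below, and for 3814 the change was larger in gaster. The parts of kit, depth, tissue and id in the spread were not tested.

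The 2 genes with the largest spread were chosen by their SD of the within-worker difference and are described without a test. SINVBB1_03079 had an SD of 3.0 log2 units. Its brain level was similar in all ants, from 15.2 to 63.8 CPM. Its gaster level fell into separate ranges, 11.5 to 56.5 CPM in 6 ants and 0.0642 to 1.15 CPM in the other 14. The 6 ants with a high gaster level were mBB replicates 6 and 7, mpBB replicates 13 and 15, pBB replicate 6 and pBL replicate 6. Every group held ants of both kinds, so that the spread lay within groups and mostly in gaster. Of these 6 ants, 5 had an individual id over 140 and 1 an id under 140, among 12 and 8 ants in all.

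SINVBB1_04755 had an SD of 2.63 log2 units, and its spread followed the groups. In the 5 mBB ants, in order of replicate number, brains held 13.5, 27.0, 10.2, 7.78 and 3.58 CPM, and gasters held 21.6, 29.2, 12.4, 31.6 and 21.2 CPM. In the 5 pBB ants brains held 78.4, 53.4, 79.3, 151 and 9.78 CPM, and gasters held 1.32, 3.57, 1.10, 4.69 and 1.08 CPM. The gaster was thus the higher tissue in every mBB ant and the lower one in every pBB ant. The mean within-worker log2 difference was 1.13 ± 1.09 (SD, n = 5) in mBB, -0.82 ± 1.75 in mpBB, -4.79 ± 1.27 in pBB and -3.13 ± 1.34 in pBL. In pBL the gaster was lower in all 5 ants, and in mpBB it was lower in 4 of 5, by as little as 0.01 in replicate 15.

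**Figure D3:**
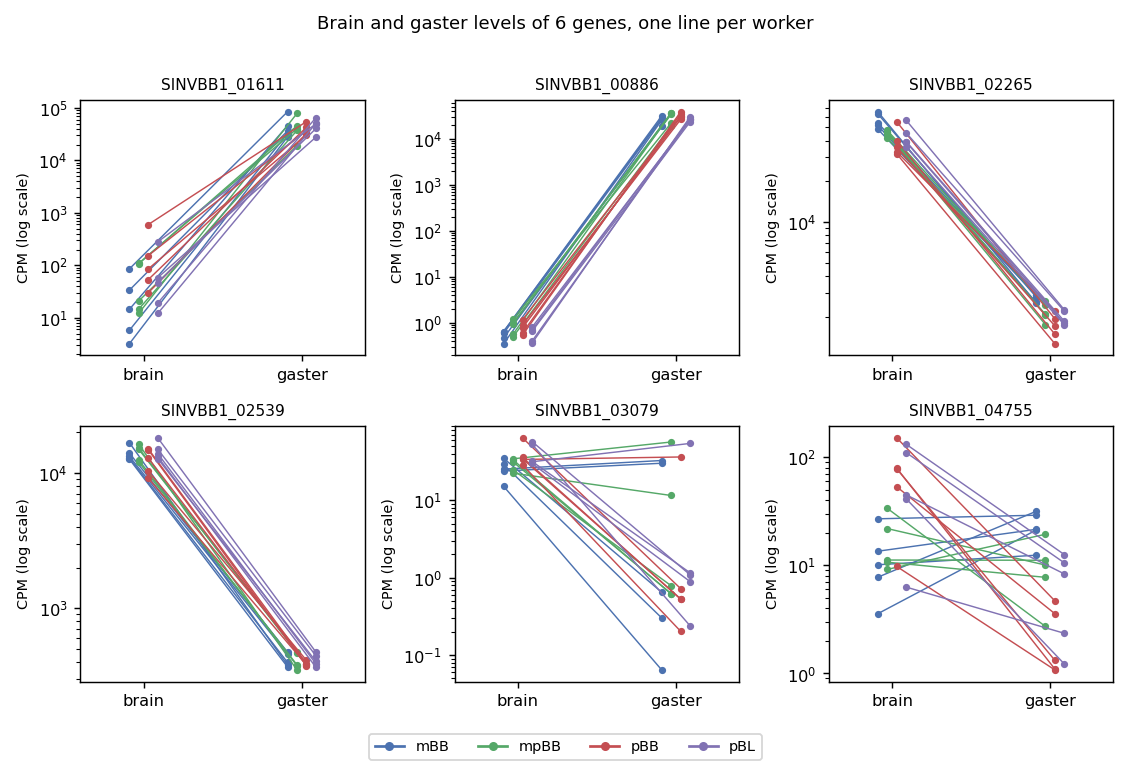
Levels of 6 genes in brain and gaster, in CPM on log scales that differ between panels, with 1 line per worker and colours for the 4 groups of 5. The first 4 panels show the genes with the highest levels in each direction, with all 20 lines sloping the same way, and the last 2 the genes with the largest spread, SINVBB1_03079 with 6 high gasters and SINVBB1_04755 with lines of opposite slope in mBB and pBB.

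Genes next to each other in the files tended to lie on the same side. Across 10850 pairs of genes tested in adjacent rows, the log2 difference correlated with r = 0.429, which is across genes and a description only. In 1211 pairs both genes were called, and in 1052 of them (86.9%) the direction was the same. Whether rows follow the order of genes on chromosomes is not given in the sources used here.

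The longest stretch of adjacent rows called higher in brain held 47 genes, and the longest called higher in gaster held 12. Both were picked for their length after the values were seen. Summed over the 47 genes, brains held 181 to 389 CPM (median 256 CPM) and gasters 1.26 to 4.52 CPM. The stretch was thus low but present in every brain and close to 0 in every gaster, with log2 differences from -9.64 to -3.88. Brain and gaster ranges were apart for all 47 genes. They were also apart for 1477 of all 1552 genes called higher in brain and for 60.3% of all genes tested, so this is not particular to the stretch. Summed over the 12 genes, gasters held 846 to 1598 CPM and brains 1.31 to 7.31 CPM. Stretches of at least 10 rows numbered 7 on the brain side and 1 on the gaster side, while stretches of at least 5 rows numbered 18 and 29.

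Each group of 5 workers alone gave nearly the same picture. The same test called 1474 genes higher in gaster and 1368 higher in brain in mBB (12.1% and 11.2% of genes tested), 1433 and 1350 in mpBB (11.7% and 11.1%), 1483 and 1363 in pBB (12.2% and 11.2%), and 1439 and 1257 in pBL (11.8% and 10.3%). In all 4 groups, 1285 genes were called higher in gaster and 1112 higher in brain. No gene was called in opposite directions in 2 groups. The sign of the difference was the same in the 4 groups for all 1568 and all 1552 genes called over all workers. Those calls were made on the same workers, so that this agreement in sign is largely built in. Differences between the groups in these counts were not tested.

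The difference between genotypes was asked of the tissue difference itself, with pBL (SB/Sb) against pBB (SB/SB), which share origin and host. It was tested as an interaction in edgeR's quasi-likelihood fit with each worker as a block and no minimum fold. In 26 of 12200 genes (0.213%) the gaster minus brain difference depended on genotype, 14 of them more positive in pBL and 12 more negative, and 25 by over 2-fold. Without an adjustment 359 genes had p under 0.05, and DESeq2 called 37. With no difference at all, a share of about 0.05 of the 12200 genes would have such a p, which is more than 359. The within-worker differences of pBL and pBB did not overlap for all 26, against 90 genes (0.738%) of all tested.

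The 2 directions came from different tissues. In 13 of the 14 genes with a more positive difference the change between genotypes was larger in gaster, and in 11 of the 14 the mean gaster level was over 2-fold higher in pBL. In 11 of the 12 genes with a more negative difference the change was larger in brain, and in 11 of the 12 the mean brain level was over 2-fold higher in pBL. For 12 of the 26 genes the tissue with the higher level was not the same in pBL and pBB. In file order, 19 of the 26 lay between rows 4919 and 5522, a span with 509 genes tested, which was noticed after the calls were made.

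SINVBB1_03510 was higher in brain in all SB/SB workers and higher in gaster in all SB/Sb workers. In pBB, gasters held 0.680, 0.166, 0.165, 0.180 and 0.131 CPM. In pBL, they held 42.4, 32.5, 59.4, 74.1 and 71.8 CPM. Its gaster levels in mBB and mpBB were at most 0.311 CPM, so that every SB/Sb gaster was far above every SB/SB gaster. Brains held 3.75 to 8.56 CPM in pBB and 10.3 to 22.7 CPM in pBL. The mean log2 difference was -4.56 ± 1.27 (SD, n = 5) in pBB and 1.78 ± 0.55 in pBL, and the interaction was 6.55 ± 0.59 (SE, edgeR adjusted p = 2.75e-06).

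SINVBB1_08915 separated the genotypes in gaster, while its brain levels overlapped. Brains held 5.58 to 8.27 CPM in pBB and 4.02 to 7.68 CPM in pBL. Gasters held 2.64, 1.75, 2.67, 1.87 and 1.45 CPM in pBB and 30.5, 28.1, 77.2, 42.8 and 56.5 CPM in pBL. The gaster was the lower tissue in all SB/SB ants and the higher one in all SB/Sb ants, with mean log2 differences of -1.75 ± 0.40 (SD, n = 5) in pBB and 2.77 ± 0.50 in pBL. The interaction was 4.55 ± 0.27 (SE, edgeR adjusted p = 3.20e-09).

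SINVBB1_01570 and SINVBB1_06655 showed the reverse form, high in gaster in both genotypes, low in the brains of SB/SB ants and far higher in the brains of SB/Sb ants. For SINVBB1_01570, gasters held 23.3 to 46.5 CPM in pBB and 26.3 to 41.1 CPM in pBL. Its brains held 0.227, 0.137, 0.106, 0.737 and 0.240 CPM in pBB and 10.9, 7.37, 10.4, 8.28 and 10.7 CPM in pBL. The gaster ranges overlapped and the brain ranges did not, and the interaction was -5.30 ± 0.56 (SE, n = 5 workers a group, edgeR adjusted p = 2.82e-05).

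For SINVBB1_06655, gasters held 86.8 to 148 CPM in pBB and 98.0 to 121 CPM in pBL. Brains held 2.11, 1.54, 1.20, 1.31 and 2.08 CPM in pBB and 51.9, 42.9, 45.6, 44.8 and 37.1 CPM in pBL. Brain levels in mBB and mpBB, from 0.505 to 2.17 CPM, were also far under those of pBL. The tissue difference shrank from 6.14 ± 0.45 (SD, n = 5) in pBB to 1.31 ± 0.29 in pBL, an interaction of -4.87 ± 0.28 (SE, edgeR adjusted p = 3.20e-09). SINVBB1_01570 and SINVBB1_06655 are in adjacent rows of the files, 5174 and 5175.

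**Figure D4:**
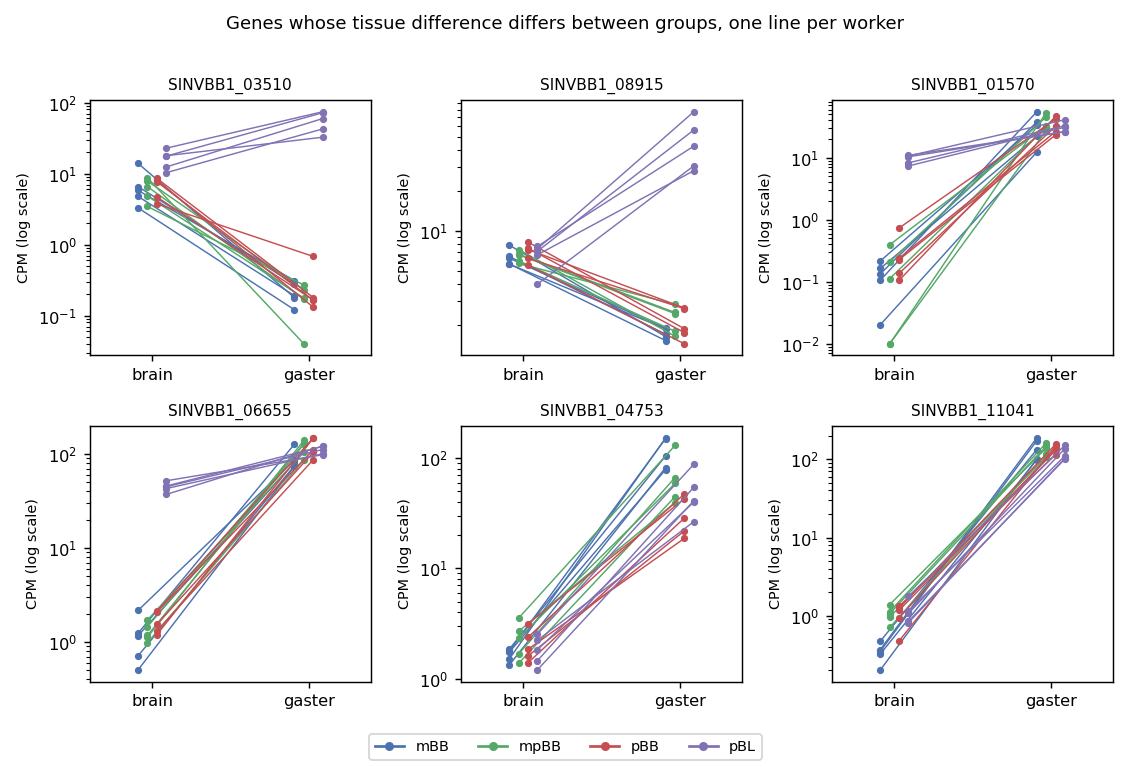
Levels of 6 genes in brain and gaster, in CPM on log scales that differ between panels (0 drawn at 0.01), with 1 line per worker and colours for the 4 groups of 5. In the first 4 panels the pBL lines differ from those of the other groups, rising where the others fall for SINVBB1_03510 and SINVBB1_08915 and starting higher in brain for SINVBB1_01570 and SINVBB1_06655.

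Neither adult host nor colony of origin alone gave a gene past the threshold. For the host, mpBB was set against mBB, and 0 genes (0%) passed in edgeR, with 300 at an unadjusted p under 0.05 and 3 called by DESeq2. The 300 are fewer than a share of 0.05 of all genes tested, which no difference would give. The smallest adjusted p in edgeR was 0.112, for SINVBB1_11041. Its brains held 0.354, 0.203, 0.370, 0.474 and 0.325 CPM in mBB and 0.963, 1.39, 1.06, 1.13 and 0.710 CPM in mpBB, with no overlap. Its gasters held 98.3 to 187 CPM in mBB and 108 to 161 CPM in mpBB. The tissue difference was 8.46 ± 0.40 (SD, n = 5) in mBB and 6.95 ± 0.28 in mpBB, and the interaction of -1.64 ± 0.28 (SE) did not pass in edgeR but passed in DESeq2. The other 2 genes called by DESeq2 were SINVBB1_01939, with an interaction of 0.56 ± 0.12 (SE), and SINVBB1_01912, with 0.53 ± 0.13. Their adjusted p was 1 in edgeR, and over the alternatives it ran from 0.0277 to 1 and from 0.0368 to 1, with the lowest value by DESeq2. SINVBB1_09858 had an interaction of -0.61 ± 0.15 and an edgeR adjusted p of 1, and DESeq2 did not call it.

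For the origin, pBB was set against mpBB, and 0 genes (0%) passed in edgeR, with 236 at an unadjusted p under 0.05 and 1 called by DESeq2. The 236 are fewer than a share of 0.05 of all genes tested, which no difference would give. The gene called by DESeq2 was SINVBB1_04755, with an interaction of -4.10 ± 0.86 (SE, n = 5 workers a group, edgeR adjusted p = 1). SINVBB1_01712 had an interaction of 4.06 ± 1.11 and SINVBB1_09049 of 2.14 ± 0.54, both with an edgeR adjusted p of 1. Within-worker differences of SINVBB1_01712 overlapped between the groups, from 1.51 to 7.29 in pBB and from 0.01 to 3.0 in mpBB. SINVBB1_04702 had an interaction of -0.97 ± 0.26 with the same adjusted p of 1.

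Origin and host together, pBB against mBB, gave 3 genes in edgeR (0.0246%), all with a more negative gaster minus brain difference in pBB, with 640 genes at an unadjusted p under 0.05 and 17 called by DESeq2. The 640 are close to a share of 0.05 of all genes tested, which no difference would give. This comparison shares its workers with those above. The first was SINVBB1_04755, described above, with an interaction of -5.92 ± 0.85 (SE, n = 5 workers a group, edgeR adjusted p = 0.0125). The second, SINVBB1_04753, stands in the next row of the files, and its gasters held 78.8, 153, 82.4, 151 and 105 CPM in mBB and 18.8, 42.9, 21.9, 47.5 and 28.7 CPM in pBB. Its gaster ranges did not overlap, while its brains overlapped, at 1.32 to 1.84 CPM in mBB and 1.39 to 3.15 CPM in pBB. The interaction was -2.18 ± 0.33 (edgeR adjusted p = 0.0125). The third was SINVBB1_11041, at -1.61 ± 0.27 (edgeR adjusted p = 0.0415), with the brain level higher in pBB, at 0.479 to 1.32 CPM.

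These 3 calls depended on single workers. Without mBB replicate 3, 1 gene passed, SINVBB1_04755. Without pBB replicate 1, whose gaster stood apart, or without pBB replicate 5, 0 genes passed, with an adjusted p of 0.0650 and 0.0610 for SINVBB1_04755. With a block for the replicate number that these groups share, 1 gene passed, SINVBB1_04755 (edgeR adjusted p = 0.00172), while SINVBB1_04753 and SINVBB1_11041 had adjusted p of 0.0665 and 0.0793. Under the 28 alternatives tried, adjusted p lay anywhere from 1.3e-11 to 0.0650 for SINVBB1_04755, from 1.67e-06 to 0.113 for SINVBB1_04753 and from 0.00153 to 0.400 for SINVBB1_11041, the lowest by DESeq2 for the first 2, and the direction was the same in all of them.

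The within-worker difference also moved with the individual id in the labels. The 8 workers with an id under 140, 2 in each group, were set against the 12 with a higher id, 3 in each group. The split was taken from earlier results of these same libraries, so that the counts and values here describe a pattern already seen and are no independent test of it. In edgeR, 4435 of 12200 genes (36.4%) passed an adjusted p of 0.05 for the difference in gaster minus brain, 1995 more positive and 2440 more negative in the lower ids, and the change was larger in gaster than in brain for 3814 of them. The differences were mostly small, with a median size of 0.58 on the log2 scale and 953 genes over 2-fold. Titles name merged sequencing runs for 10 of the 12 brains with a higher id and for 0 of the 8 with a lower id, and among the 10 workers without merged runs 30 genes passed, all of them among the 4435. Only 2 of those 10 workers had a higher id. What the id marks is not given in the sources used here, and id and merging of runs cannot be told apart for most brains.

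SINVBB1_12643 was a gaster gene in all ants but at a level that followed the id. Its gasters held 5.41 CPM in the lowest, 16.8 CPM at the median and 55.9 CPM in the highest of the 8 lower ids, and 190 CPM, 342 CPM and 555 CPM in the 12 higher ids. Its brains held at most 0.124 CPM. The gaster ranges did not overlap, and the fitted difference between the ids in gaster minus brain was -4.26 ± 0.75 (SE).

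SINVBB1_09443 was higher in brain in every ant with a lower id. Gasters held 0.440 to 2.03 CPM in the lower ids and 4.44 to 17.7 CPM in the higher ids. Brains held 6.55 to 10.6 CPM and 2.24 to 11.9 CPM. The gaster ranges did not overlap and the brain ranges did, with a fitted difference of -3.94 ± 0.28 (SE).

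On the positive side the named genes were SINVBB1_00466 and SINVBB1_09871. Both were at 0 in every brain of the lower ids, and for that reason no fold is given. Gasters of the lower ids held 347 to 790 CPM of SINVBB1_00466 and those of the higher ids 847 to 1348 CPM, with 0 to 1.29 CPM in the brains of the higher ids. For SINVBB1_09871 the gasters overlapped, at 18.2 to 202 CPM and 25.0 to 181 CPM.

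Brain and gaster were also matched within ants by their deviations from the group. After the mean of its tissue and group was taken from each library, every gaster was correlated over 12200 genes with every brain. The brain of the same ant was the best match for 18 of 20 gasters. Correlations with the own brain were weak, from 0.0535 to 0.303 (median 0.187), and those with other brains ran from -0.142 to 0.169. The exceptions were pBB replicate 3 and pBL replicate 6, in both of which the own brain ranked second. The best match of the first was the brain of pBL replicate 5 (0.0681), and of the second that of pBB replicate 6 (0.105). With the 1000 most variable genes the own brain was the best match for 20 of 20. Other ants on the same side of the id of 140 had a median correlation of -0.000368 and those on the other side -0.0163. The values describe these libraries, and genes are not independent replicates. Ants of a group came from separate colonies, so the same ant and the same colony cannot be told apart here.

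**Figure D5:**
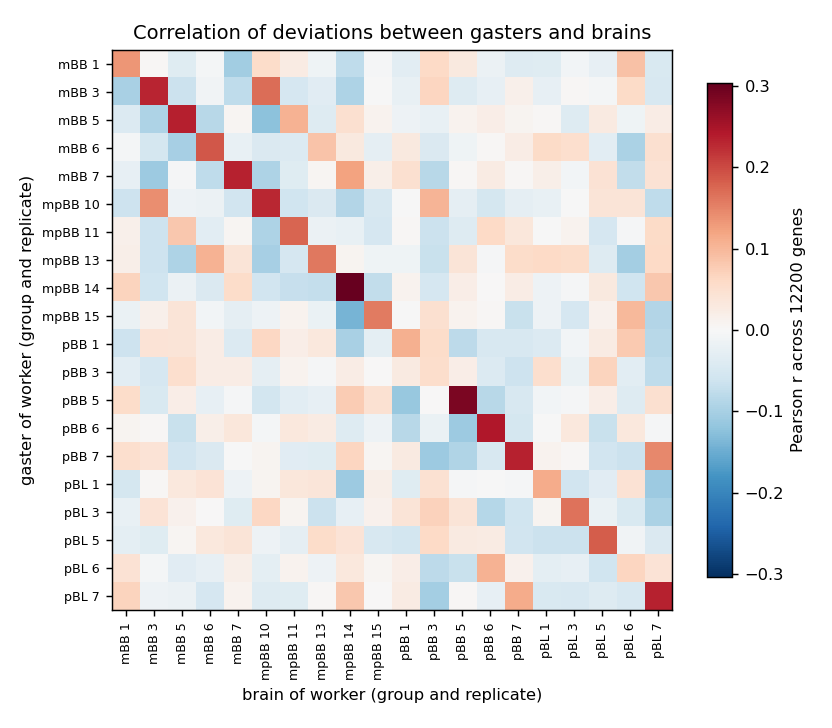
Pearson's r between the deviations of each gaster (rows) and each brain (columns) from the mean of their tissue and group, across 12200 genes, for 20 workers named by group and replicate. The diagonal is the same ant, at 0.0535 to 0.303, and it holds the highest value of its row in 18 of 20 rows.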

How the data were processed

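Single brains and gasters of the 20 workers that gave both were measured by RNA-seq. The submitters' processing notes name Trim Galore, STAR and edgeR. Versions, genome build and annotation were not given in the sources used here. The deposited files hold raw counts per gene, made by the authors, for 16314 identifiers in an unstranded and 2 strand columns. The unstranded column was used in both tissues. The 4 rows that name no gene entered neither library sizes nor tests. Per library, 11.1% to 29.2% of brain reads and 11.7% to 53.4% of gaster reads were unmapped, and 6.38% to 9.34% and 7.68% to 15.4% were multimapped. Genes that share reads with a near-identical copy are uncertain.

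The tests were run with edgeR 4.0.16 in R 4.3.3 (TMM, filterByExpr by tissue, glmQLFit with worker as a block). The tissue difference was tested with glmTreat against a log2 fold of 3, and group interactions with glmQLFTest, both with Benjamini-Hochberg adjustment over 12200 genes at 0.05. Standard errors were derived from the test statistic. Log2 levels used a prior count of 2. Depth was 31063072 ± 13494811 gene counts in brain and 60433892 ± 10586453 in gaster (SD, n = 20). The median SE of a log2 difference was 0.102 for tissue and 0.283 for genotype. On simulated data with 12200 genes the tissue test called 0% of 4-fold and 94% of 16-fold changes, and the genotype test 44.3% of 2-fold and 77.1% of 4-fold changes, with 1 of 12000 unchanged genes called. Changed genes had a mean of at least 1 CPM before the change. Levels were otherwise equal in both tissues, with no worker or id effect. These rates need not hold for genes near 0 in a tissue.

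The workers, comparisons and rules were chosen with earlier results of these data known. Named genes were, for each direction of the tissue difference, the 2 called genes with the highest mean CPM in the higher tissue, for each interaction the 2 called genes with the largest difference in each direction above a mean log2 CPM of 1 or, with none called, those with the smallest p, and the 2 genes with the largest SD over workers at 10 CPM or more in both tissues. Where 3 passed, all 3 are named. Of the identifiers, 0 matched the gene name table, so marker lists were not used. Alternatives were RLE scaling, no composition scaling, other filters and folds, DESeq2 1.42.0, the reverse-strand column in gaster, fits without the worker block, a block for the replicate number, a term for the id, and leaving out workers. For the id comparison the alternatives were chosen after seeing the data.

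Shared replicate numbers were checked on within-worker differences. For pBB and mBB the 5 same-numbered pairs deviated together with correlations of 0.139 to 0.358 (mean 0.205, while ants of other numbers gave -0.0490). Each pair was over 0.1, so that their numbers were taken to pair the ants. What a number marks is not given in the labels, and low numbers go with low ids. For pBL and pBB 4 of 5 pairs were over 0.1, and the lowest was 0.0905. Their mean of 0.289 was nonetheless above that of pBB and mBB, with -0.0720 for ants of other numbers. The same-numbered ant was the best match in 5 of 5, against 4 of 5 for pBB and mBB. The cut at 0.1 thus does not show the genotype groups to be unpaired.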

Additional observations from a re-analysis of the deposited data

Results flagged for a closer look

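In 128 groups of 5 libraries or workers examined, 7 held a sample far from the rest. That is close to the rate of about 1 in 20 that chance gives. For SINVBB1_02539 the within-worker log2 difference of mpBB replicate 11 was -5.54, the most negative of its group. For SINVBB1_03079, which was chosen for its spread over workers, that of pBB replicate 6 was 0.11, while the other pBB ants had a far lower gaster level. For SINVBB1_03510 that of mBB replicate 6 was -5.96, and for SINVBB1_04702 that of pBB replicate 1 was -1.26. The gaster of pBB replicate 1 stood apart 3 times, with 13.9% of its counts in its 10 most abundant genes, 53.4% of its reads unmapped and 29.1% of its reads in genes.

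The gaster minus brain difference itself differed between groups, by a test of the interaction, in 26 genes for pBL against pBB and in 3 for pBB against mBB. For ids under 140 against higher ids, a split taken from earlier results of these libraries and so no independent test, the count was 4435. Among the genes named, the interaction of genotype was 6.55 for SINVBB1_03510, 4.55 for SINVBB1_08915, -5.30 for SINVBB1_01570 and -4.87 for SINVBB1_06655. That of origin and host together was -5.92 for SINVBB1_04755, -2.18 for SINVBB1_04753 and -1.61 for SINVBB1_11041. That of the id was -4.26 for SINVBB1_12643 and -3.94 for SINVBB1_09443.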

How the results depend on the processing

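The count of genes over 8-fold between the tissues was 3120 and ran from 2168 (a minimum of 16-fold) to 4613 (4-fold), with 3126 without the worker block, 3005 by DESeq2, 2888 in ids under 140 alone and 2998 in higher ids alone. The genotype count of 26 ran from 19 (without the workers of gaster pBB 1 and brain pBL 6) to 37 (DESeq2). With a replicate block for the shared number it was 27, of which 22 were among the 26, and each pBL ant correlated best with the pBB ant of its number in 5 of 5, a hint from the data and not from the design. For pBB against mBB the same block left 1 gene in place of 3, DESeq2 called 17, and leaving out 1 replicate each gave 0 to 4. For the host, DESeq2 called 3 and leaving out 1 replicate each gave 0 to 1, where 1 came without pBB replicate 3. For the origin DESeq2 called 1. The id count of 4435 was 30 in the 10 workers without merged brain runs. The share of counts in the most abundant genes, gaster minus brain, was 0.228 percentage points for 10 genes, reversed to -2.37 for 1 gene and reached 6.46 for 100. The number of genes detected, gaster minus brain, was -522 thinned and -54.85 not thinned. The causes of these changes were not tested, apart from fewer workers where workers were left out. Of the values of single genes under alternatives, 508 kept direction and call, 27 lost the call, 5 gained it and 0 reversed. The 508 include genes called neither in the main fit nor in the alternative, such as most values of the genes named for host and origin. Most alternatives left out 1 worker and so shared nearly all workers with the main fit. Genes named for the id are not among these values. Depth limits the count of genes detected, and kit and tissue cannot be told apart.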
